A study of Mus musculus with 8 samples.

Results

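The 10 genes described here encode enzymes and carriers of mitochondrial fatty acid oxidation in mouse liver. They were chosen by symbol for their known place in the pathway, with earlier results of these data known, as Cpt1a, Cpt2, Slc25a20, Acadm, Acadl, Acadvl, Hadha, Hadhb, Acaa2 and Etfdh. All 10 were among the 19267 genes of the count table, and all 10 were among the 13993 genes with enough counts to be tested. Each member had between 205 and 8120 counts in each library.

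Mitochondrial fatty acid oxidation, or β-oxidation, shortens fatty acids in steps to acetyl-CoA, which feeds the TCA cycle and ketone body synthesis. Long-chain acyl-CoA first crosses into the matrix as acylcarnitine, and each later turn of the cycle removes electrons that pass to the respiratory chain. In liver the pathway runs mainly in hepatocytes, and many of its genes are known targets of the nuclear receptor PPARα, which binds fatty acids as ligands.

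Liver RNA of male C57BL/6 mice was sequenced in 8 libraries, 2 in each of 4 groups. WT mice and Elf4fl/fl-Villin-Cre mice (written Elf4-/- below) were given a Lieber-DeCarli liquid diet with alcohol at 5% (w/v), called EtOH, or with maltose dextrin of equal calories, called Control. The diets started at 6 weeks of age and ran for 21 days, and the age at sampling was 9 weeks. Cre was driven by the villin promoter, which is active in the intestinal epithelium, so the livers were not the site of the deletion. Per the study's methods the WT mice were Cre mice, so both genotypes carried Cre, and feeding was paired between diets. The labels do not say whether the 2 libraries of a group came from separate animals, so p-values measure only the spread between these libraries.

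Library totals ran from 6171051 to 9157362 counts. The mitochondrial genome gave 33.7% and 23.4% of the counts of the WT-Control libraries, 12.5% and 10.8% of those of WT-EtOH, and between 18.3% and 22.1% of those of the Elf4-/- mice. Levels are therefore given as CPM, counts set to a common library total, with totals scaled by the trimmed mean of M-values (TMM). The first principal component of all genes (51.6% of the variance) separated the diets, and the second (12.9%) set Elf4-/- EtOH library 1 apart. Elf4 itself had between 6 and 36 counts per library, which is no check of a gut deletion. The 7 hepatocyte markers together stood between 37599 and 75556 CPM in each library. Of the 7 fat and muscle markers, 2 were in the table and none passed the filter on low counts, with at most 1.31 CPM in sum.

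The 10 members lie on 8 chromosomes of GRCm38 (GENCODE M21 positions), and only Hadha and Hadhb are neighbours. Of the entry genes, Cpt1a lies at chr19:3322334-3385733 and Slc25a20 at chr9:108662088-108684641, both on the plus strand, and Cpt2 at chr4:107903981-107923610 on the minus strand. The 3 acyl-CoA dehydrogenase genes are all on minus strands, Acadvl at chr11:70010183-70015411, Acadl at chr1:66830839-66863277 and Acadm at chr3:153922357-153944632, as is Etfdh at chr3:79603788-79629500. Hadha, on the minus strand at chr5:30118304-30155162, and Hadhb, on the plus strand at chr5:30155248-30184593, start 86 bases apart and point away from each other. They encode the alpha and beta subunits of the mitochondrial trifunctional protein, which carries out the last steps of the cycle for long chains. The region between these GENCODE starts (chr5:30155163-30155247, plus strand of GRCm38.p6, from RefSeq) is shown because both genes are described below as rising with the EtOH diet. It has 85 bases and a GC content of 69.4%, and no letter is in capitals because no motif is marked.
Hadha-Hadhb start region: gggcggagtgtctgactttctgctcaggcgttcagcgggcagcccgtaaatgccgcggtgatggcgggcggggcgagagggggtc

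PPARα binds DNA with its partner RXR at a direct repeat of the half-site AGGTCA with 1 base between the copies (DR1). RefSeq promoter windows, from 250 bases before to 50 after a gene's start, were searched on both strands for 9 of the members. The closest DR1 match of each member is a description of letters, not a binding site. The 2 closest are shown because they are the only ones with fewer than 4 mismatches, and capitals mark bases that fit the repeat. The Slc25a20 match (chr9:108662142-108662154, plus strand) has 2 mismatches and the Acadm match (chr3:153944615-153944627, minus strand) has 3, and both begin just after the RefSeq start.
Slc25a20 closest DR1: AGGTgAaAGGTCg
Acadm closest DR1: AGcTCAgAccTCA
Among 32851 promoter windows, 3.86% held a DR1 with at most 2 mismatches and 24.6% one with at most 3. The other 7 windows had 4 or 5 mismatches at best. A single half-site stood in the windows of Cpt1a, Acadm and Acadvl, and in 16.3% of all windows.

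The first question was how the EtOH diet changed these genes in WT liver. In the WT mice 8 of the 10 members rose with the EtOH diet (a call here is an adjusted p under 0.05 in edgeR's quasi-likelihood test, corrected across every gene tested by Benjamini-Hochberg), while 10.8% of all genes tested were called higher. The 8 were Cpt2, Slc25a20, Acadl, Acadvl, Hadha, Hadhb, Acaa2 and Etfdh, by 1.60-fold to 3.33-fold. None fell. The median log2 fold change of the members was 1.08, against 0.01 over all genes tested. In 9 of 10 members both WT-EtOH libraries lay above both WT-Control libraries, as did 34.1% of all genes tested.

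**Figure D1:**
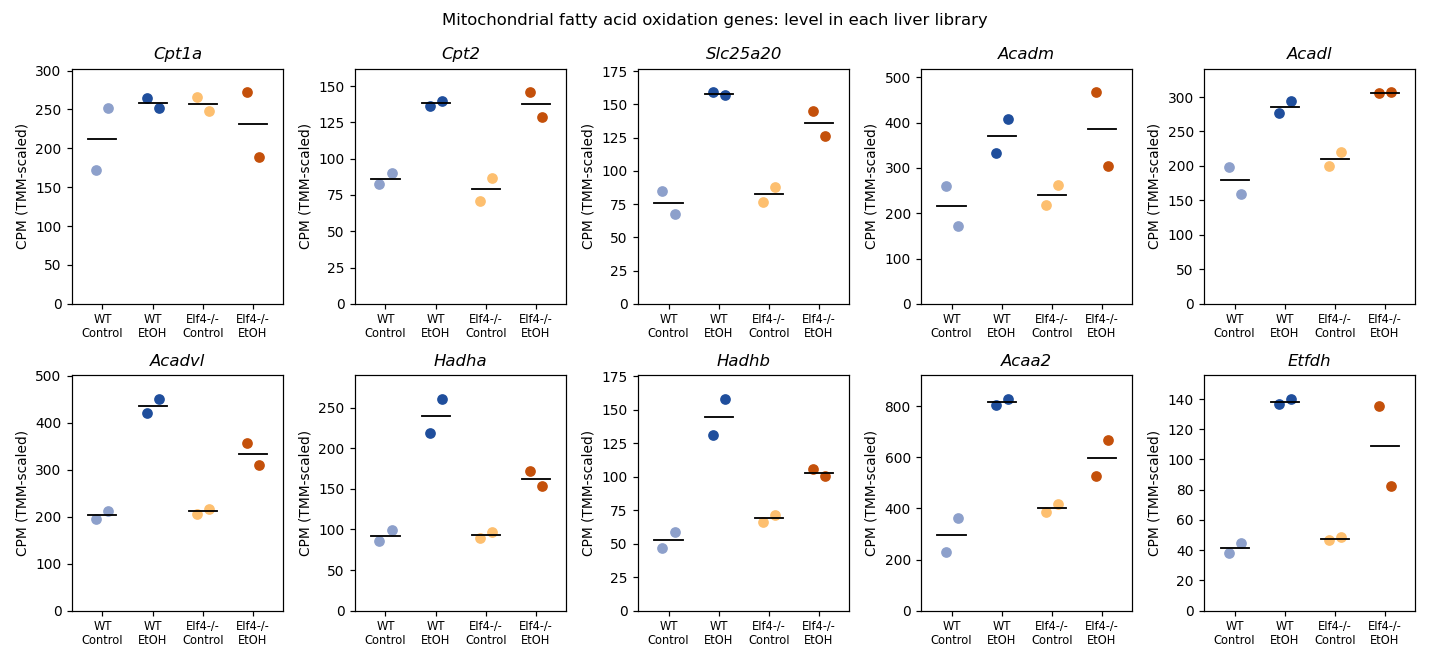
Level of each of the 10 genes in every liver library, in TMM-scaled CPM on axes that start at 0. Each point is 1 library and each line the mean of 2; the WT-EtOH points lie above the WT-Control points in every panel except Cpt1a, and the Elf4-/- EtOH points lie above the Elf4-/- Control points in every panel except Cpt1a.

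Entry into the matrix runs through 3 members. Cpt1a, the liver form of carnitine palmitoyltransferase 1, makes long-chain acylcarnitine at the outer membrane and is inhibited by malonyl-CoA. Its levels were 171.9 and 252.3 CPM in WT-Control and 264.4 and 252.2 CPM in WT-EtOH. The groups overlapped, and the log2 fold change was 0.28 ± 0.26 (SE, n = 2 libraries a group, edgeR adjusted p = 0.457, 95% interval -0.29 to 0.86). The carnitine-acylcarnitine carrier of the inner membrane, encoded by Slc25a20, stood at 84.8 and 67.3 CPM in WT-Control and at 159.2 and 156.6 CPM in WT-EtOH. It rose by 1.05 ± 0.21 on the log2 scale (edgeR adjusted p = 0.00810). Cpt2, the inner-membrane enzyme that turns acylcarnitine back into acyl-CoA, went from 82.2 and 90.3 CPM to 136.3 and 139.8 CPM, a log2 fold change of 0.68 ± 0.20 (edgeR adjusted p = 0.0363). Neither Slc25a20 nor Cpt2 overlapped between the diets in WT mice.

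The acyl-CoA dehydrogenases start each turn of the cycle, and members differ in the chain length they take. Acadvl, the very long-chain enzyme, stood at 195.4 and 211.4 CPM in WT-Control and 420.5 and 451.0 CPM in WT-EtOH. Acadl, the long-chain enzyme, stood at 198.8 and 159.2 CPM and at 277.4 and 293.6 CPM. Acadm, the medium-chain enzyme, stood at 261.2 and 172.6 CPM and at 334.1 and 408.4 CPM. All 3 were higher in both WT-EtOH libraries than in either WT-Control library. The log2 fold change was 1.10 ± 0.21 for Acadvl (edgeR adjusted p = 0.00713) and 0.67 ± 0.21 for Acadl (edgeR adjusted p = 0.0460). For Acadm it was 0.78 ± 0.29, which did not pass the threshold (edgeR adjusted p = 0.0835, 95% interval 0.13 to 1.42). The ratio of Acadvl to Acadl CPM was 0.98 and 1.33 under Control and 1.52 and 1.54 under EtOH in WT mice, and between 0.99 and 1.17 in all 4 Elf4-/- libraries. Exons of Acadvl overlap those of Dvl2, a gene of Wnt signalling which lies on the other strand, and whether reads were counted by strand was not stated. Dvl2 had a log2 fold change of 1.08 ± 0.21 in WT mice (edgeR adjusted p = 0.00801), so reads of the pair may not be separable. Its counts lay close to those of Acadvl in each library, such as 1037 beside 1048 in WT-Control library 1, 3306 beside 3326 in WT-EtOH library 1 and 1917 beside 2236 in Elf4-/- EtOH library 1. The level of Acadvl and its ratio to Acadl are given with this limit.

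The trifunctional protein and the thiolase finish the cycle. Hadha stood at 86.0 and 99.0 CPM in WT-Control and 218.6 and 260.7 CPM in WT-EtOH. Its neighbour Hadhb stood at 47.0 and 58.9 CPM and at 130.9 and 158.1 CPM. Acaa2, the matrix 3-ketoacyl-CoA thiolase that releases acetyl-CoA, stood at 229.7 and 360.4 CPM in WT-Control and 802.9 and 827.4 CPM in WT-EtOH. None of these 3 genes overlapped between the diets. They rose by 1.37 ± 0.21 (Hadha, edgeR adjusted p = 0.00314), 1.45 ± 0.20 (Hadhb, adjusted p = 0.00262) and 1.47 ± 0.27 (Acaa2, adjusted p = 0.00662) on the log2 scale. The ratio of Hadha to Hadhb CPM, with no correction for length, lay between 1.35 and 1.83 in all 8 libraries, with its 2 lowest values, 1.35 and 1.36, in Elf4-/- Control. Hadhb shares sequence with the pseudogene Hadhb-ps, whose counts were 6.35% to 14.5% of those of Hadhb. Gm23119 and Scarna17, small RNA genes that start 497 and 728 bases from Acaa2 on the other strand, had at most 17 counts in any library, and Gm23119 fell by 2.78 on the log2 scale in WT mice (edgeR adjusted p = 0.0147).

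Etfdh, the oxidoreductase that hands electrons from the acyl-CoA dehydrogenases to ubiquinone, had the largest estimated fold change of the 10 in WT mice. It stood at 38.2 and 44.9 CPM in WT-Control and at 136.7 and 140.0 CPM in WT-EtOH. The groups did not overlap, and the log2 fold change was 1.73 ± 0.25 (edgeR adjusted p = 0.00277), or 3.33-fold. Exons of Etfdh overlap 4930579G24Rik on the opposite strand, but that gene had at most 17 counts in any library.

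**Figure D2:**
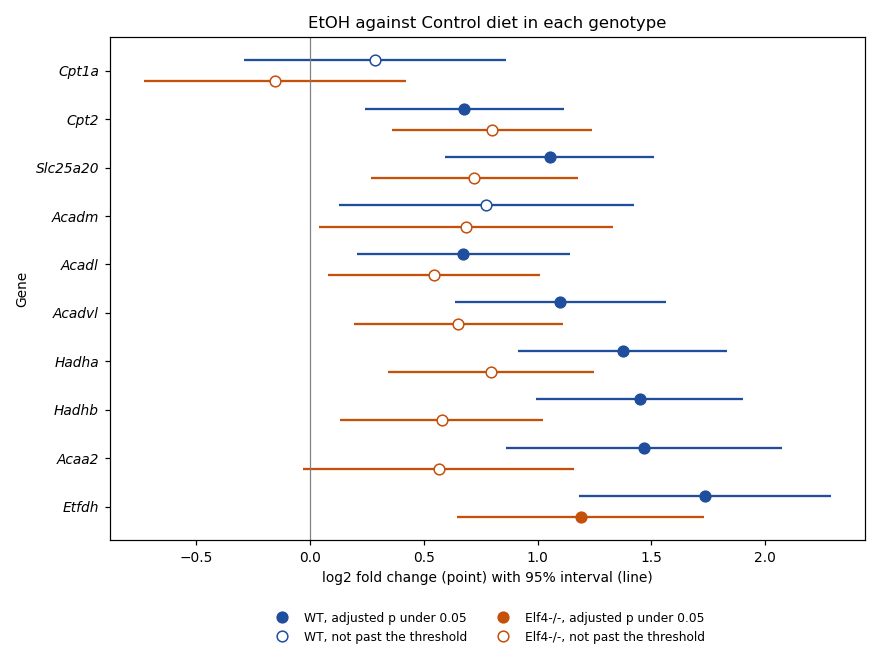
Log2 fold change of EtOH against Control for each gene in WT (blue) and Elf4-/- mice (orange), with its 95% interval as a line and a vertical line at 0. Filled points passed an adjusted p of 0.05; 8 of 10 WT points and 1 of 10 Elf4-/- points, Etfdh, are filled.

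The calls in WT mice did not all rest on the same footing. Hadha, Hadhb, Acaa2 and Etfdh were called under each of 15 alternative settings of the analysis. Acadvl was called in 14, Slc25a20 in 13, Cpt2 in 9 and Acadl in 7. Without WT-EtOH library 1 the number of members called was 5, and without WT-EtOH library 2 it was 4, in place of 8, while all genes called went from 3025 to 971 and 626. Scaling by library totals alone raised the members' median to 1.51, but it also moved the median of all genes to 0.44 and turned the split of called genes from 1518 higher and 1507 lower to 3422 higher and 634 lower.

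In Elf4-/- mice the same diet contrast called 1 member, Etfdh, while 1.71% of all genes tested were called higher. Etfdh stood at 46.8 and 48.5 CPM in Elf4-/- Control and 135.3 and 82.3 CPM in Elf4-/- EtOH. Both EtOH libraries were higher, though they differed from each other. The log2 fold change was 1.19 ± 0.24 (edgeR adjusted p = 0.0361). This call was lost when any 1 library other than Elf4-/- EtOH library 2 was left out. Without Elf4-/- EtOH library 2, 4 members were called (Cpt2, Slc25a20, Hadha and Etfdh), while the number of all genes called higher went from 239 to 824. The DESeq2 Wald test called 3 members (Cpt2, Hadha and Etfdh) and 452 of all genes higher.

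The remaining members of Elf4-/- mice mostly had EtOH values above Control values without passing the threshold. In 9 of 10 members both Elf4-/- EtOH libraries lay above both Elf4-/- Control libraries, as did 25.8% of all genes tested, and the median log2 fold change was 0.67. An unadjusted p under 0.05 was reached by 8 of 10 members and by 2966 of the 13993 genes tested. Hadha stood at 89.9 and 97.4 CPM in Control and 172.0 and 153.2 CPM in EtOH. Cpt2 stood at 71.0 and 87.0 CPM and at 145.8 and 128.8 CPM. Slc25a20 stood at 76.4 and 88.2 CPM and at 145.2 and 126.2 CPM. In these 3 genes no library of one diet reached the other. Their log2 fold changes were 0.80 ± 0.20 for Hadha (edgeR adjusted p = 0.0654), 0.80 ± 0.20 for Cpt2 (adjusted p = 0.0599) and 0.72 ± 0.20 for Slc25a20 (adjusted p = 0.0842).

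Among the dehydrogenases of Elf4-/- mice, Acadm stood at 217.3 and 263.3 CPM in Control and 467.7 and 305.3 CPM in EtOH. Acadl stood at 200.6 and 219.7 CPM and at 305.6 and 307.1 CPM, and Acadvl at 206.7 and 217.6 CPM and at 356.4 and 310.6 CPM. Their adjusted p values were 0.211 (Acadm), 0.176 (Acadl) and 0.110 (Acadvl) by edgeR. Hadhb stood at 66.5 and 71.6 CPM in Control and 105.7 and 100.6 CPM in EtOH. Acaa2 stood at 386.8 and 418.6 CPM and at 525.4 and 667.3 CPM. Their log2 fold changes were 0.58 ± 0.20 for Hadhb (edgeR adjusted p = 0.139) and 0.57 ± 0.27 for Acaa2 (adjusted p = 0.259), each smaller than its estimate in WT mice. Cpt1a stood at 265.4 and 248.2 CPM in Control and 272.2 and 189.3 CPM in EtOH. Its diets overlapped here too, with a log2 fold change of -0.15 ± 0.26 (edgeR adjusted p = 0.776, 95% interval -0.73 to 0.42).

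The second question was whether the genotype changed the members within a diet, or changed the response to alcohol. Under EtOH no member was called between Elf4-/- and WT mice by edgeR, and 0.143% of all genes tested were called. The lowest unadjusted p values were 0.0198 for Hadha (log2 fold change -0.56, 95% interval -1.01 to -0.11, edgeR adjusted p = 0.373) and 0.0342 for Hadhb (log2 fold change -0.49, 95% interval -0.93 to -0.04, adjusted p = 0.433). These 2 were the only members with an unadjusted p under 0.05, which 1470 of the 13993 genes tested also reached. In 6 of 10 members, Slc25a20, Acadvl, Hadha, Hadhb, Acaa2 and Etfdh, both Elf4-/- EtOH libraries lay below both WT-EtOH libraries, as did 21.4% of all genes tested. Acadl was the 1 member with both Elf4-/- EtOH libraries above, at a log2 fold change of 0.10 ± 0.21. The members' median was -0.28, and it was -0.08 without Elf4-/- EtOH library 2. DESeq2 called no member either.

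Under Control no member was called by edgeR or DESeq2, and 0.0143% of all genes tested were called by edgeR. No member had an unadjusted p under 0.05, which 1023 of the 13993 genes tested reached. In 4 of 10 members, Acadl, Hadhb, Acaa2 and Etfdh, both Elf4-/- libraries lay above both WT libraries, as did 20% of all genes tested. The highest log2 fold changes were 0.45 ± 0.27 for Acaa2 (edgeR adjusted p = 0.784) and 0.38 ± 0.20 for Hadhb (adjusted p = 0.746). The members' median was 0.17.

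**Figure D3:**
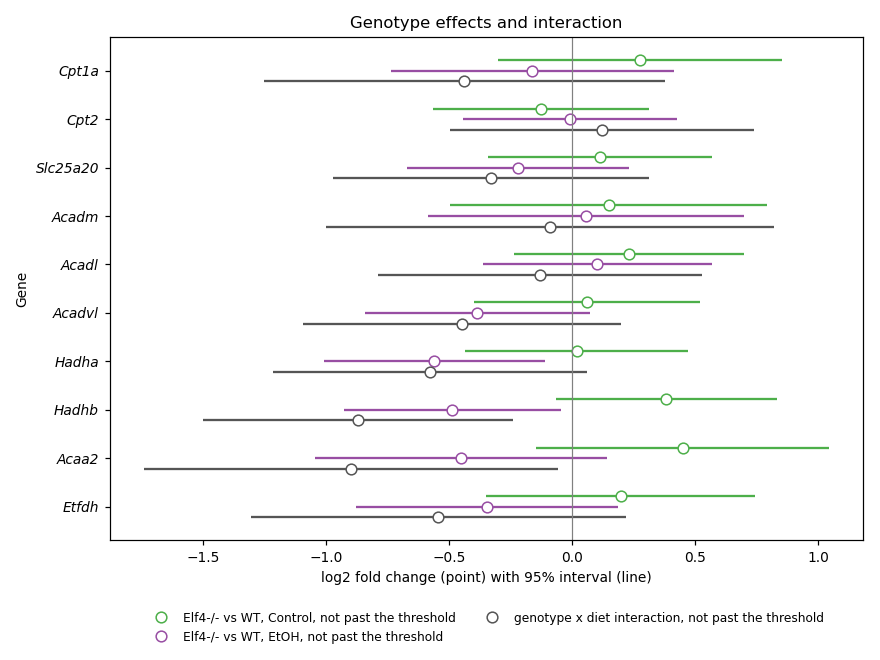
Log2 fold change of Elf4-/- against WT under Control (green) and under EtOH (purple), and the interaction of genotype and diet (grey), for each gene, with 95% intervals as lines. No point passed an adjusted p of 0.05; the intervals of Hadha and Hadhb under EtOH, and of the interaction for Hadhb and Acaa2, lie below 0.

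The interaction, the diet effect in Elf4-/- mice minus that in WT mice on the log2 scale, tests whether the response differed. No member passed by edgeR or DESeq2, and edgeR called 0% of all genes tested, with 1411 genes at an unadjusted p under 0.05. Of the members, 2 had an unadjusted p under 0.05. Hadhb had an interaction of -0.87 ± 0.28 (unadjusted p = 0.0118, 95% interval -1.50 to -0.24, edgeR adjusted p = 0.347). Acaa2 had one of -0.90 ± 0.38 (unadjusted p = 0.0385, 95% interval -1.74 to -0.06, edgeR adjusted p = 0.463). For Cpt2, which encodes the enzyme after the carrier, it was 0.12 ± 0.28 with an interval of -0.50 to 0.74. The median over members was -0.44. So 8 calls in WT against 1 in Elf4-/- mice were not shown to differ by this test, and diet effects in the genotypes share no libraries but share the estimate of spread.

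Levels can be compared between genes only per length, as RPKM (CPM per kilobase). Lengths were taken either as all exon bases of a gene or as the longest principal transcript, and only orders that held with both are given. Acaa2 had the highest mean RPKM of the 10 in all 4 groups, from 194.6 in WT-Control to 537.7 in WT-EtOH with either length. The 3 acyl-CoA dehydrogenases followed in each group, all above the carnitine entry genes, though their order among themselves changed with the length used and the group. For Acadvl the limit given above, of reads that may be shared with Dvl2, holds here too. In the 2 Control groups Etfdh was the lowest, at 5.5 and 6.4 RPKM by all exons and 17.5 and 20.1 RPKM by principal transcript in WT and Elf4-/- mice. The ratio of Etfdh to Cpt1a CPM, the last electron carrier set against the first enzyme, was 0.22 and 0.18 under Control against 0.52 and 0.56 under EtOH in WT mice. In Elf4-/- mice it was 0.18 and 0.20 against 0.50 and 0.43, so no EtOH library reached the range of the Control libraries. Etfdh and Cpt1a had the highest and lowest estimated diet change of the 10 in both genotypes, so this ratio restates those estimates.

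The 10 genes together took 0.117% and 0.134% of the counts of the WT-Control libraries and 0.326% and 0.367% of those of WT-EtOH. For the Elf4-/- libraries the shares were 0.173% and 0.168% under Control, then 0.251% and 0.242% under EtOH. With the genes of the mitochondrial genome left out of the total, the shares were 0.177% and 0.174%, 0.372% and 0.411%, 0.213% and 0.206%, and 0.322% and 0.297% in the same order. The order of the groups was the same both ways, with WT-Control lowest and WT-EtOH highest.

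The mean profile of the members over the 8 libraries was compared with each of 8204 genes that had a mean of at least 10 CPM. Likeness was the root mean square distance between centred log2 CPM values. Genes outside the group that lay close to it included Ech1 (distance 0.0720), Anxa7, Armc1, Denr, Emc7, Lsm4, Tmem33, Rhoa and Nek7 (0.103). Ech1 encodes an enzyme that handles unsaturated acyl-CoA, while Rhoa encodes a small GTPase. Among the members Acadvl was closest to the mean profile (0.0675, rank 2 of 8204) and Cpt1a the farthest (0.422, rank 2446), followed by Etfdh (0.325, rank 1309). These distances have no test, and the members are part of their own mean.

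The rest of the pathway was taken from a list of its known enzymes and carriers. For this list and those that follow, 10.8% of all genes tested were called higher and 10.8% lower with the diet in WT mice. In Elf4-/- mice the shares were 1.71% higher and 1.18% lower. Of 18 tested genes of fatty acid activation, carnitine handling and mitochondrial β-oxidation outside the 10, 9 rose with the EtOH diet in WT mice, with a median log2 fold change of 0.76. A positive estimate was found for 13 of the 18 in WT mice, and none was called lower. Etfa, Etfb and Acad10 had log2 fold changes of -0.09 ± 0.21, -0.57 ± 0.23 and -0.72 ± 0.26 there, none past the threshold (edgeR adjusted p = 0.795, 0.103 and 0.0783). In Elf4-/- mice 2 rose (Acads and Decr1), with a median of 0.55. Crat, carnitine acetyltransferase, rose by 2.50 ± 0.40 in WT mice (edgeR adjusted p = 0.00379) and stood at 1.51 ± 0.38 in Elf4-/- mice (adjusted p = 0.0642). Slc22a5, the carnitine uptake carrier of the cell surface, rose by 2.08 ± 0.60 in WT mice (adjusted p = 0.0367), a call kept only when an Elf4-/- EtOH library was the one left out, and Acsl1, which activates long-chain fatty acids, by 1.60 ± 0.29 (adjusted p = 0.00563). Acads, the short-chain dehydrogenase, rose by 1.51 ± 0.19 and 1.08 ± 0.18 in WT and Elf4-/- mice, and Decr1, the reductase for unsaturated chains, by 1.58 ± 0.21 and 0.99 ± 0.21 (edgeR adjusted p from 0.00182 to 0.0387). The muscle form Cpt1b had at most 7 counts in any library and was not tested, and Cpt1c, the form of neurons, had at most 21.

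Malonyl-CoA inhibits CPT1, and its makers and remover were read beside Cpt1a. Acacb, the acetyl-CoA carboxylase of the mitochondrial surface, rose in both genotypes, by 1.70 ± 0.30 in WT (edgeR adjusted p = 0.00511) and 1.44 ± 0.28 in Elf4-/- mice (adjusted p = 0.0309). It stood at 27.0 and 16.7 CPM in WT-Control and 71.9 and 69.9 CPM in WT-EtOH. Its Elf4-/- levels were higher under both diets, at 88.0 and 55.3 CPM in Control and 217.9 and 173.0 CPM in EtOH. Acaca, the cytosolic carboxylase, had log2 fold changes of 0.07 ± 0.20 and -0.82 ± 0.20, neither past the threshold (edgeR adjusted p = 0.837 and 0.0543). Mlycd, which breaks malonyl-CoA down, had 0.43 ± 0.23 and 0.04 ± 0.23 (edgeR adjusted p = 0.207 and 0.946). Acaca stood at 103.9 and 93.4 CPM in Elf4-/- Control, and between 52.8 and 66.8 CPM in every library of the other groups. Between genotypes edgeR called none of these 3 genes under either diet. DESeq2 called 1 of the 3 under each diet, with 180 of all genes called under EtOH and 79 under Control.

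Of 13 nuclear receptors, coactivators and deacetylases that act on these genes or enzymes, 1 rose and 3 fell in WT mice, with a median of -0.48, and 1 rose in Elf4-/- mice, with a median of -0.36. Ppara, which encodes PPARα, had log2 fold changes of 0.45 ± 0.27 in WT and 0.11 ± 0.26 in Elf4-/- mice, neither past the threshold (edgeR adjusted p = 0.260 and 0.844). Pparg rose in both, by 2.11 ± 0.43 and 2.0 ± 0.40 (edgeR adjusted p = 0.00915 and 0.0319). The coactivators Ppargc1a and Ppargc1b fell in WT mice, by 1.33 and 1.57 on the log2 scale (edgeR adjusted p = 0.0304 and 0.0158), as did the receptor gene Esrra. The WT-EtOH levels of Ppargc1a were 6.32 and 3.46 CPM against 11.8 and 12.7 CPM in WT-Control.

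Of 16 known PPARα targets outside mitochondrial β-oxidation, 12 rose with the diet in WT mice (median 2.05) and 7 in Elf4-/- mice (median 1.22). Cyp4a14 and Cyp4a10, which hydroxylate fatty acids at the chain end, rose by 7.49 ± 1.28 and 4.56 ± 0.36 in WT and by 6.11 ± 1.19 and 3.63 ± 0.35 in Elf4-/- mice. Acot1, a cytosolic acyl-CoA thioesterase, rose by 7.43 ± 0.49 and 3.34 ± 0.37, and Pdk4, which restrains pyruvate dehydrogenase, by 7.41 ± 1.50 and 5.84 ± 1.30. The edgeR adjusted p values of these 4 genes ran from 0.000163 to 0.0456. The WT-Control libraries held 6 and 4 counts of Acot1, 8 and 2 of Pdk4, 152 and 6 of Cyp4a14, and 279 and 222 of Cyp4a10. The sizes for Acot1, Pdk4 and Cyp4a14 in WT mice therefore rest on few counts in at least 1 Control library. In Elf4-/- EtOH, Pdk4 stood at 219.2 CPM in library 1 and 8.36 CPM in library 2, and without library 1 its log2 fold change was 2.06 (edgeR adjusted p = 0.120). Its call in Elf4-/- mice was kept when 1 of the 8 libraries, Elf4-/- EtOH library 2, was left out and lost with each of the others. The Elf4-/- call of Cyp4a14 was lost without either WT-EtOH or either Elf4-/- Control library. The WT call of Pdk4 was lost without either WT-Control library. Every member of mitochondrial β-oxidation listed above had a smaller estimated change with all libraries in the fit than these 4 in the same genotype.

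**Figure D4:**
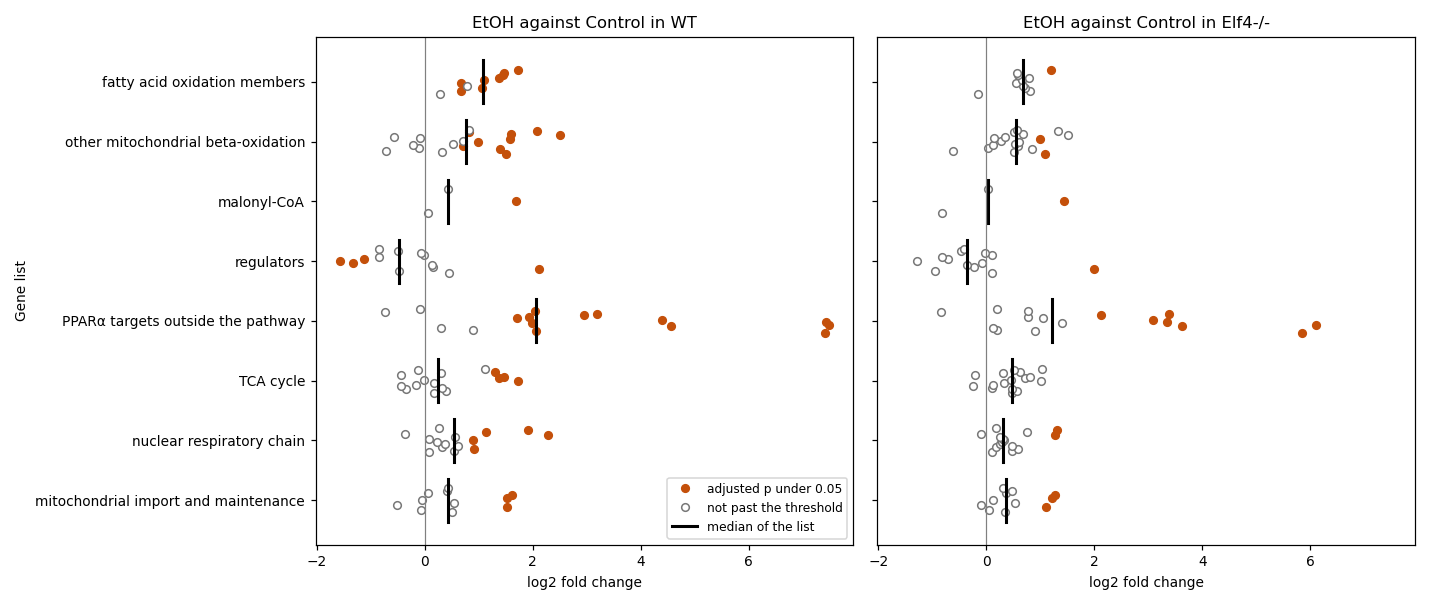
Log2 fold change of EtOH against Control for every tested gene of the fatty acid oxidation group and of 7 further lists, in WT (left) and Elf4-/- mice (right). Filled points passed an adjusted p of 0.05 and the black bar is the median of the list; the PPARα targets reach beyond 7 in WT mice, while the medians of the TCA cycle, the respiratory chain and import lists lie between 0.24 and 0.53 there.

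Genes downstream of the pathway and of other mitochondrial functions were read beside it. Of 16 TCA cycle genes, 4 rose in WT mice (Suclg1, Sdha, Sucla2 and Sdhd) and none was called in Elf4-/- mice by edgeR, where 6 had an unadjusted p under 0.05 and DESeq2 called 2. Of 15 nuclear genes of the respiratory chain and ATP synthase, 5 rose in WT mice, led by Cox5a at 2.28 ± 0.30, and 2 in Elf4-/- mice (Cox5a and Atp5b). Of 11 genes of mitochondrial pores, import and chaperones, Hspe1, Hspd1 and Tomm20 rose in both genotypes. The median log2 fold changes of these 3 lists in WT mice were 0.24, 0.53 and 0.42, beside 1.08 for the fatty acid oxidation group. The same medians in Elf4-/- mice were 0.48, 0.30 and 0.37, beside 0.67 for the group. Estimates were positive for 10 of the 16 TCA cycle genes in WT and 14 of the 16 in Elf4-/- mice. The difference between lists was not tested in either genotype.

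Bulk RNA cannot tell fewer cells of a type from less RNA per cell, and other cell types moved with the diet. Of 6 Kupffer cell markers, 6 were called higher in WT-EtOH, and their summed level was 151 to 199 CPM under Control and 505 to 558 CPM under EtOH in WT mice, against 139 to 142 CPM and 189 to 199 CPM in Elf4-/- mice. All 5 endothelial markers and 3 of 5 stellate cell markers were called higher in WT-EtOH too. The summed hepatocyte markers were 55015 to 75556 CPM under Control and 37599 to 44469 CPM under EtOH in WT mice, against 66341 to 73934 CPM and 44119 to 58915 CPM in Elf4-/- mice. This sum rested mostly on Alb and Apoa1, whose means went from 36002.6 and 16226.5 CPM in WT-Control to 23455.2 and 3199.1 CPM in WT-EtOH. The means of Apob, Ttr and Serpina1c went from 1797, 5758 and 2537 CPM to 1669, 5262 and 1890 CPM. Of the 7 hepatocyte markers 1 was called higher (Cyp2e1) and 1 lower (Apoa1) in WT-EtOH. Only 1 of the 7 had a positive estimate there, and their median log2 fold change was -0.42. Of 5 red blood cell markers 2 were called lower in WT-EtOH. Of 5 bile duct and 3 neutrophil markers none was called by edgeR or DESeq2 in WT mice, with 3 and 0 at an unadjusted p under 0.05. None was called in Elf4-/- mice either, but there all 3 neutrophil markers had an unadjusted edgeR p under 0.05, as did 2966 of the 13993 genes tested. Their sum was 0.92 and 1.79 CPM in Elf4-/- Control, and 13.2 and 1.72 CPM in Elf4-/- EtOH libraries 1 and 2. No hepatocyte, Kupffer, endothelial or stellate cell marker was at 0 in any library. Between genotypes under EtOH, 2 Kupffer cell markers, Cd5l and Clec4f, were called lower in Elf4-/- mice. The part of cell composition in the members' change was not tested.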

How the data were processed

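Liver RNA was measured in 8 libraries of 4 groups, assigned from the sample labels. Per the study's methods, the authors mapped paired-end reads to mm10 with HISAT2, counted reads per gene with HTSeq and tested them with DESeq2, and no versions, annotation or strand setting were given in the sources used here. The deposited table holds raw read counts per gene symbol, 1 column per library. The filterByExpr rule, applied by group, set the genes tested, and these held no less than 99.8% of any library's counts.

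All libraries entered 1 edgeR quasi-likelihood fit with 4 groups and TMM factors (R 4.3.3, edgeR 4.0.16, limma 3.58.1), and p-values were adjusted by Benjamini-Hochberg over all 13993 genes tested, with a threshold of 0.05. The biological coefficient of variation was 22.7%. Log2 CPM used a prior count of 2. Positions came from GENCODE M21 and promoters from RefSeq, both on GRCm38. The authors may have counted on another annotation.

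The members and gene lists were chosen with earlier results of these data known. Named outside the members were, from each pathway list and diet contrast, the 3 called genes with the largest change, plus the malonyl-CoA genes, Ppara, Ppargc1a, Cpt1b, Cpt1c, Elf4, genes that start near a member and genes most like the members, and some results under this rule are not reported here. Esrra, Sdhd, Cd5l, Clec4f, Etfa, Etfb, Acad10, the hepatocyte markers named above and the overlapping genes Dvl2 and Hadhb-ps were named after their values were seen. Alternatives were other scalings, no filter, DESeq2 1.42.0, the 4 libraries of a contrast alone, a replicate block and leaving out each library. The principal transcript length was added after seeing the data. Same-numbered libraries did not deviate together from their group means (correlations from -0.109 to 0.059), so numbers were not taken to pair libraries. No 2 libraries of a group agreed within sampling noise.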

Additional observations from a re-analysis of the deposited data

How the results depend on the processing

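Other scalings, no filter on low counts, DESeq2, the 4 libraries of a contrast alone, a replicate block and leaving out each library were tried, and the causes of changes were not tested unless stated. A fit without 1 library assumes that the lone library left in its group varies like the others. The number of genes called with the EtOH diet in WT mice (3025) ran from 626 (without WT-EtOH library 2) to 4023 when 1 library was left out, and was 971 without WT-EtOH library 1 and 1477 and 1753 without WT-Control library 1 and 2. In Elf4-/- mice it was 404, from 9 to 1683 with 1 library out, 240 with the replicate block, 811 with DESeq2 and 40 with 4 libraries. Between genotypes under EtOH it was 20, from 0 to 366 with 1 library out, 50 with no filter, 10 with the replicate block, 180 with DESeq2 and 0 with 4 libraries. Under Control it was 2, from 0 to 53 with 1 library out, 5 with library totals, 14 with no filter, 79 with DESeq2 and 22 with 4 libraries. For the interaction it was 0, from 0 to 139 with 1 library out, 7 with no filter and 111 with DESeq2. Library totals turned the split under EtOH from 17 higher and 3 lower to 10 and 4, and under Control from 1 and 1 to 4 and 1.

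Members called in WT mice (8) ranged from 4 to 9 with 1 library out, and 7 were called under the replicate block, which lost Acadl. In Elf4-/- mice (1) the count ranged from 0 to 4, and was 0 with the replicate block, 3 with DESeq2 and 0 with 4 libraries. Library totals moved the members' median to 1.51 in WT mice, -0.52 between genotypes under EtOH, 0.40 under Control and -0.91 for the interaction. The same scaling moved the median of all genes to 0.44, -0.23, 0.24 and -0.47. With 1 library out the median under EtOH between genotypes ran from -0.38 to -0.083 and that of the interaction from -0.61 to -0.24.

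None of the estimates whose sign changed was called. All were under 0.2 in size on the log2 scale except Cpt1c in WT mice (0.81). Library totals gave Acadm -0.19 and Acadl -0.13 between genotypes under EtOH, and gave Cpt2 0.095 between genotypes under Control and -0.34 for the interaction. With 1 library out, the ranges in Elf4-/- mice by diet were -0.44 to 0.064 for Cpt1a, -0.50 to 0.23 for Ppargc1a, -0.11 to 0.20 for Mlycd and -0.086 to 0.27 for Ppara. In WT mice by diet they were -0.11 to 0.22 for Acaca and -0.14 to 1.37 for Cpt1c. Between genotypes under EtOH they were -0.44 to 0.069 for Cpt1a, -0.093 to 0.072 for Cpt2 and -0.28 to 0.33 for Acadm. Under Control they were -0.28 to 0.019 for Cpt2, -0.037 to 0.29 for Slc25a20, -0.11 to 0.48 for Acadm and -0.076 to 0.13 for Hadha. For the interaction they were -0.021 to 0.27 for Cpt2, -0.43 to 0.18 for Acadm and -0.30 to 0.019 for Acadl. Outside the members, the calls of Acads, Decr1, Acacb, Pparg, Cyp4a10, Cox5a, Atp5b, Hspe1, Hspd1 and Tomm20 in Elf4-/- mice were each lost in at least 1 fit with a library out. So were the calls of Pdk4, Pparg, Ppargc1a and Ppargc1b in WT mice.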
